A study of Mus musculus with 10 samples.

Results

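The cytosolic ribosomal protein genes were examined in sensory neurons of the mouse dorsal root ganglion (DRG) and trigeminal ganglion (TG). The members are genes whose symbol is Rpl or Rps, a number and at most a single further letter (a, x, l or y), together with Rplp0, Rplp1, Rplp2 and Rpsa, that reached an FPKM (fragment density, scaled for transcript length and library size) of at least 1 in 2 or more libraries of DRG or of TG. The members were thus chosen by name and selected on their FPKM. Of 80 such symbols among 45952 genes, 77 passed, 45 of the large subunit and 32 of the small subunit, among 12637 genes detected by the same filter. The cells were GFP-positive, propidium iodide-negative events sorted from adult, naive Avil-GFP mice on a CD1 background, in which a bacterial artificial chromosome places EGFP under the advillin promoter, and all groups share this transgene. Lumbar DRG gave 3 male and 3 female libraries and TG gave 2 male and 2 female libraries, each made from the sorted cells of a single mouse. The labels name satellite glial cells as a contaminant.

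A cytosolic ribosome is built from a small subunit, which reads the messenger RNA, and a large subunit, which joins the amino acids. Each ribosomal protein is present once per ribosome except the stalk proteins P1 and P2, so that cells need their proteins in matched amounts. The messenger RNAs of these genes are among the most abundant and shortest of any cell. Most begin with a run of pyrimidines, the terminal oligopyrimidine tract, through which mTOR and the RNA-binding protein LARP1 control how strongly they are translated. Sensory neurons also carry ribosomes and ribosomal protein messenger RNAs into their axons.

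The start sites of a few members are shown because the tract is the sequence feature that the family is known for and the membership rule did not use it. Each line gives 30 bases from the RefSeq promoter table (build GRCm38.p6), on the strand of the gene, with 15 bases before the annotated start and 15 from the start on. Capitals mark a run of at least 7 pyrimidines that begins with C. Rplp2, Rps10 and Rpl28 are shown because their unadjusted p between sexes was among the smallest of the members, although none passed. Rps6 is shown for its known role and Rps9 for its high level in the small subunit. Rps27 is the member that shares most sequence with other genes. Rpl38 and Rpl15 are shown for a clear tract, and Rpl41, Rplp0 and Rps4x as members with no tract in this window.
Rplp2, chr7:141447636-141447665, plus strand: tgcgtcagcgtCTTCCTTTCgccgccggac
Rps10, chr17:27635230-27635259, minus strand: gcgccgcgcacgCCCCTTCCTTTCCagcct
Rpl28, chr7:4792950-4792979, plus strand: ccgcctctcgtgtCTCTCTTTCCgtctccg
Rps6, chr4:86857353-86857382, minus strand: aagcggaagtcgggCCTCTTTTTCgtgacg
Rps9, chr7:3704026-3704055, plus strand: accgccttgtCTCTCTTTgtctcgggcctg
Rps27, chr3:90213634-90213663, minus strand: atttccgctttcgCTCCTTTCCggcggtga
Rpl38, chr11:114668565-114668594, plus strand: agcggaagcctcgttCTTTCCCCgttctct
Rpl15, chr14:18270972-18271001, minus strand: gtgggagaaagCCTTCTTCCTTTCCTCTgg
Rpl41, chr10:128549154-128549183, minus strand: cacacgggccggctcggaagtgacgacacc
Rplp0, chr5:115559452-115559481, plus strand: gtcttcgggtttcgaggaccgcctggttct
Rps4x, chrX:102189377-102189406, minus strand: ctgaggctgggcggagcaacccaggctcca

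Of the 77 members, 56 had an entry in that table, and 33 of these (58.9%) held a tract overlapping this window at an annotated start, against 22.7% of the 27025 genes of the table. The motif CCGGAAGT, the core bound by ETS factors, was searched on both strands of the whole window of 250 bases before and 50 after the start, and was present in 12 of the 56 members (21.4%) against 4.31% of all genes. TATAAA, searched in the same way, was found in 6 (10.7%) against 15.7%. A match is a description of the letters in the window only. The genes are spread over 19 chromosomes, with 4 on the X chromosome, and the annotation (GENCODE M21 on GRCm38) calls 76 of them protein coding and Rps4l a transcribed processed pseudogene.

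All 77 members passed the filter in both ganglia, and 76 had an FPKM of at least 1 in every library. Their mean FPKM ranged from 27.95 to 1461 with a median of 228, against a median of 7.31 over all genes detected, and 66 of the 1000 genes of highest mean FPKM were members. Since FPKM chose the members, these levels are a description. The member just inside the threshold was Rpl29, a large subunit protein, at a mean FPKM of 27.95. The symbols outside it were Rpl3l, the striated muscle paralog of Rpl3, at 0.136, and Rpl10l, the paralog of Rpl10 known from the testis, and Rpl39l, which were listed at 0 in every library.

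In the large subunit the highest mean FPKM belonged to Rpl41 (1461), which encodes the shortest ribosomal protein, followed by Rpl32 (814), the stalk protein gene Rplp1 (703) and Rpl19 (596). The FPKM of Rpl41 in the 6 DRG libraries ran from 802 through a median of 1276 to 3390, and in the 4 TG libraries it was 1019 and 2169 in males and 1221 and 918.5 in females. In the small subunit Rps14 (mean FPKM 998), Rps29 (844), Rps19 (822) and Rps9 (819.8) were highest. Rps14, whose protein lies at the platform of the subunit, ran in DRG from 664 through 887 to 2347, and was 766 and 1112 in male TG and 876 and 728 in female TG. For both genes male DRG replicate 3 was the highest library of the series and DRG and TG overlapped.

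At the other end, Rpl29 (mean FPKM 27.95) and Rpl27a (50.5) were lowest in the large subunit, and Rps4l (48.8) and Rps2 (72.2) in the small subunit. Rps2, a protein of the messenger RNA entry channel, ran in DRG from 13.5 in female DRG replicate 3 to 113 in male DRG replicate 1, a wider range than the 63.6 to 97.4 of TG. Paralogs differed in level. Rps27, a zinc-binding small subunit protein, was 2.998 ± 1.15 times as high as its paralog Rps27l in DRG and 3.23 ± 0.436 times in TG (SD, n = 6 and n = 4), on the FPKM scale. The lowest ratio was 1.36 in female DRG replicate 1, where Rps27l reached 255 FPKM and Rps27 345. Rps4x, the X-linked gene, exceeded Rps4l in every library, by 2.64 to 23.5 times, and the highest ratio was again in female DRG replicate 1, where Rps4l was at 11.5 FPKM.

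Before the comparisons, the libraries that stand apart have to be named. The median rank correlation of a library with the others was 0.849 for male DRG replicate 3, 0.869 for female DRG replicate 1 and 0.895 for female DRG replicate 3, and at least 0.933 for the other 7. Male DRG replicate 3 also had the largest summed FPKM (870872, against 543862 to 646684 in the others) and the highest sum of the 17 neuron markers (43491 FPKM, against 22058 to 24087 in the other DRG libraries and 23813 to 27252 in TG) and of the 14 satellite glia markers (8157, against 2326 to 5787 in the other DRG libraries and 4738 to 6395 in TG). These sums were not scaled to the summed FPKM of each library. On the log2(FPKM + 1) scale, the median deviation of the neuron markers from their own means was 0.51 in male DRG replicate 3. It was -0.27 to 0.11 in the other libraries. For the satellite glia markers it was 0.082 there, and higher in female DRG replicate 1 (0.32) and female TG replicate 1 (0.19). All 17 neuron markers and all 14 satellite glia markers in the table were detected. The sums of the other marker lists were far lower: macrophage markers 8.10 to 19.6 FPKM in DRG and 8.31 to 16.3 in TG with 3 of 14 detected, and fibroblast markers 16.1 to 30.0 in DRG and 13.9 to 34.0 in TG with 5 of 8 detected. Endothelial markers summed to 14.5 to 61.8 in DRG and 33.3 to 44.3 in TG with 1 of 7 detected, and erythroid markers to 4.38 to 8.59 and 5.59 to 28.9 with 1 of 5 detected and Alas2 at 0 in all libraries. Myelin and Schwann cell markers summed to 887 to 1389 in DRG and 1341 to 1925 in TG. The part of other cells in the levels of the ribosomal protein genes was not tested, and a difference in the number of cells of a type cannot be told apart from a difference in RNA per cell.

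The share of all FPKM that the 77 genes held was close in the ganglia. In male DRG it was 4.22%, 3.27% and 5.95%, in female DRG 3.42%, 3.97% and 3.16%, in male TG 3.25% and 4.94%, and in female TG 3.59% and 3.07%. The highest DRG and the highest TG library were both male, and the ranges overlapped throughout. DRG averaged 3.997% ± 1.04 (SD, n = 6) and TG 3.71% ± 0.847 (SD, n = 4), a difference smaller than the spread between replicates, and without male DRG replicate 3 DRG averaged 3.61% ± 0.465 (SD, n = 5). The male libraries averaged 4.33% ± 1.15 (SD, n = 5) and the female libraries 3.44% ± 0.360 (SD, n = 5), with 3.92% ± 0.818 (SD, n = 4) for males without male DRG replicate 3.

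**Figure D1:**
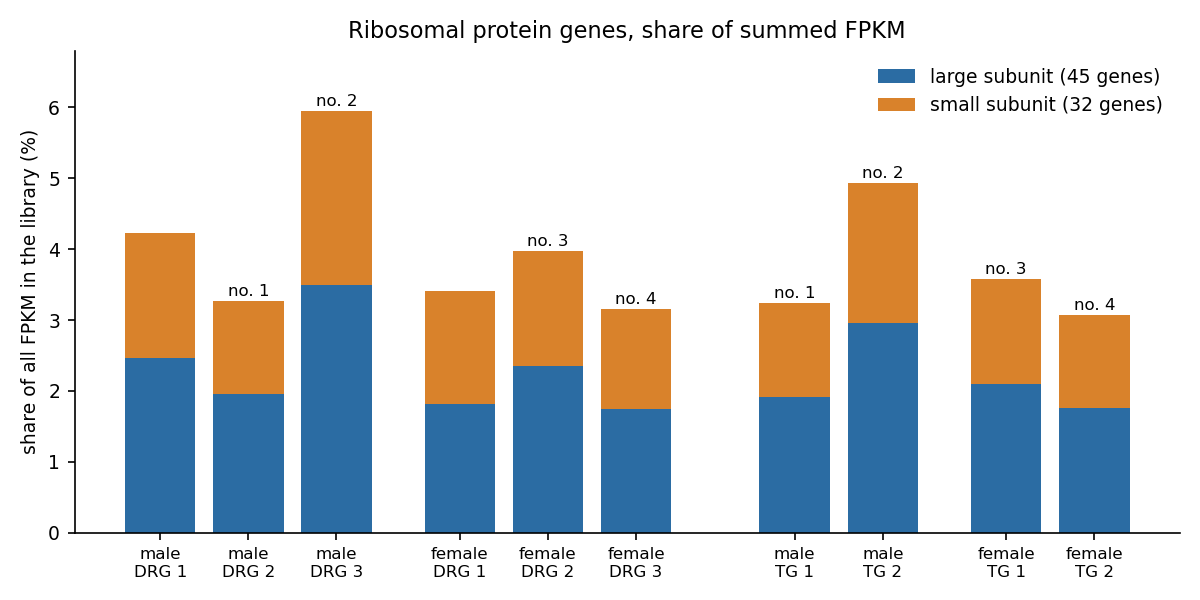
Share of summed FPKM (%) held by large subunit (lower part of each bar) and small subunit genes (upper part) in each of the 10 libraries, with the number that the description of 8 of the libraries carries. Number 2 is the highest in DRG (5.95%) and in TG (4.94%), and number 4 the lowest in both (3.16% and 3.07%).

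The descriptions of 4 DRG and 4 TG libraries carry numbers, and libraries of the same number had like shares: 3.27% and 3.25% for number 1, 5.95% and 4.94% for number 2, 3.97% and 3.59% for number 3, and 3.16% and 3.07% for number 4. In each of the 4 pairs the DRG library had the higher share, by 0.0217 to 1.01 percentage points (mean 0.375 ± 0.449, SD, n = 4). The order of the 4 numbers was the same in both ganglia. Gene by gene, 32 of the 77 members (41.6%) had the same order of the 4 numbers in DRG as in TG, against 7.85% of all genes detected. Number 2 was the highest of the 4 in both ganglia for 74 members (96.1%), against 15.7% of all genes detected, and the same number was lowest in both for 50 members (64.9%) against 38.2%. The labels do not say what the number stands for.

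Large subunit transcripts outweighed small subunit transcripts in each library, as 45 genes against 32 were summed. The ratio of summed large to summed small subunit FPKM was 1.40, 1.49 and 1.43 in male DRG, 1.14, 1.45 and 1.25 in female DRG, 1.44 and 1.49 in male TG, and 1.42 and 1.34 in female TG. The low values were those of female DRG replicates 1 and 3, and the other 8 libraries lay between 1.34 and 1.49. DRG averaged 1.36 ± 0.135 (SD, n = 6) and TG 1.42 ± 0.0615 (SD, n = 4), a difference smaller than the spread in DRG, and without the 3 libraries that stand apart DRG averaged 1.44. Males averaged 1.45 ± 0.0388 and females 1.32 ± 0.128 (SD, n = 5 each). Compared by their medians on the log2(FPKM + 1) scale, which does not depend on the number of genes, the large subunit genes lay 0.0833 ± 0.152 above the small subunit genes in DRG and 0.189 ± 0.120 above in TG (SD, n = 6 and n = 4). In female DRG replicates 1 and 3 they lay below, at -0.13 and -0.045.

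**Figure D2:**
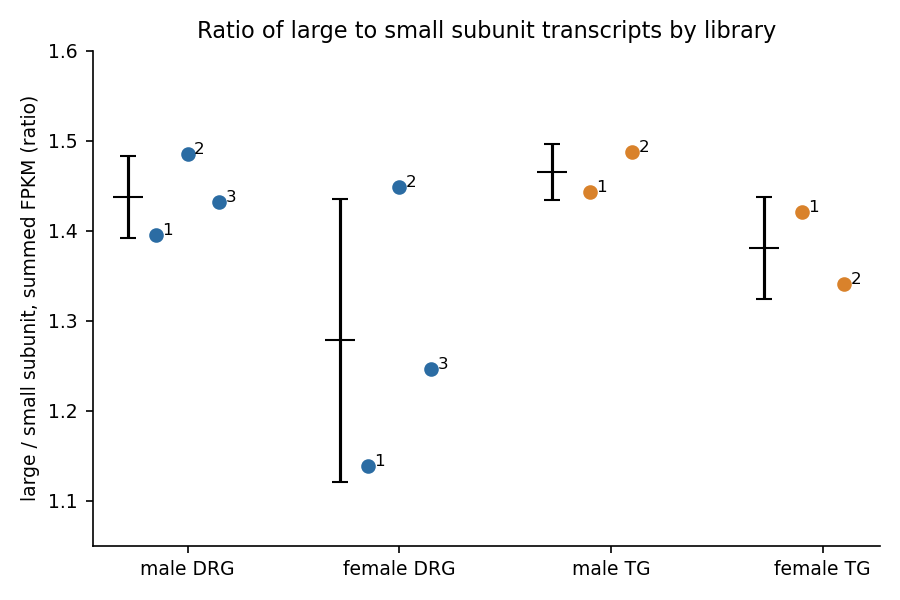
Ratio of summed FPKM of 45 large to 32 small subunit genes in each library (points, with replicate numbers), with the mean and SD of each group (bars to the left). Female DRG replicates 1 (1.14) and 3 (1.25) lie below the other 8 libraries.

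The shift of female DRG replicate 1 can be seen in its genes. There 12 of 32 small subunit genes but 9 of 45 large subunit genes lay above their own mean over the 10 libraries, and the median deviation was -0.12 for the small and -0.34 for the large subunit on the log2(FPKM + 1) scale. Rps19, a small subunit protein gene mutated in Diamond-Blackfan anaemia, reached 1057 FPKM there, the second highest of its 10 values after 1272 in male DRG replicate 3. In the same library Rps10, also a small subunit gene, was at 85.1 FPKM, against 146 to 485 in male DRG and 191 and 73.2 in the other female DRG libraries. The ratio of Rps19 to Rps10 was therefore 12.4 in female DRG replicate 1 and 11.2 in female DRG replicate 3, and between 2.62 and 6.38 in the other 8 libraries. This pair was chosen after its values were seen, and as both are small subunit genes it does not bear on the ratio of the subunits. In female DRG replicate 3, 5 of 45 large and 4 of 32 small subunit genes lay above their own mean. The median deviations there were -0.45 and -0.38.

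In male DRG replicate 3 every member of both subunits lay above its own mean, by a median of 1.19 (large) and 1.16 (small) on the log2(FPKM + 1) scale, and 75 of the 77 members had their highest value there, against 19.9% of all genes detected. Male TG replicate 2 also had all 77 above their own mean, by 0.51 and 0.46. The lowest value fell in male DRG replicate 2 for 24 members, against 7.86% of all genes detected. It fell in female DRG replicate 3 for 24 (against 15.2%), in female TG replicate 2 for 14 (against 6.27%) and in female DRG replicate 1 for 11 (against 18.1%). Male DRG replicate 3 was lowest for 0 members, against 32.8% of all genes detected. The median deviations of the large and the small subunit differed by at most 0.0837 on this scale in 9 libraries, and the large subunit lay lower by a difference of -0.22 in female DRG replicate 1.

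**Figure D3:**
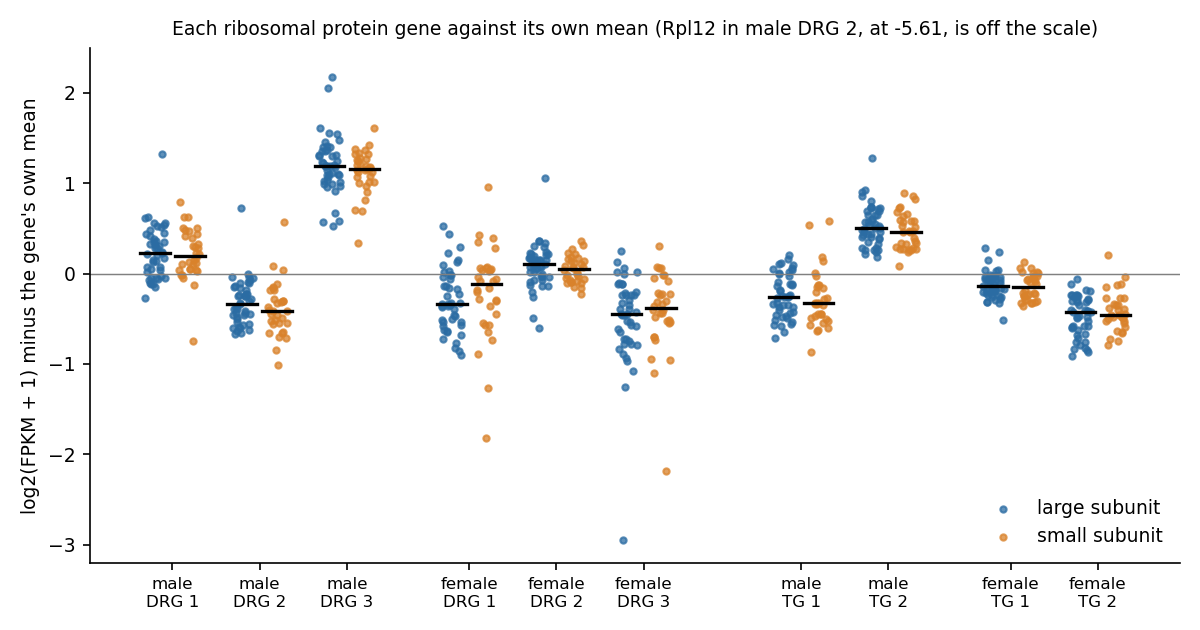
Deviation of each of the 77 members from its own mean over 10 libraries, on the log2(FPKM + 1) scale, by library and subunit (points are genes, black lines medians). Both subunits lie about 1.2 above 0 in male DRG replicate 3 and about 0.5 above in male TG replicate 2, and Rpl12 in male DRG replicate 2 (-5.61) lies off the scale.

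Members differed in how far they followed this common movement. The SD over the 10 libraries had a median of 0.58 on the log2(FPKM + 1) scale over the 77 members, and once the members' median was taken from each library it was 0.25, lower for 76 of them. Rpl14 departed least from the common median (SD 0.0670), followed by Rpl31 (0.0972) and Rpl19 (0.11), all of the large subunit. Rpl12 (1.88), Rpl26 (0.96), Rps4l (0.80) and Rps2 (0.80) departed most. Rpl12, which with the P proteins forms the base of the stalk, was listed at 0 in male DRG replicate 2 and at 56.4 to 203 in the other DRG libraries. Its TG values were 40.2 and 118 in males and 39.2 and 46.1 in females. Rpl26, a large subunit protein near the exit of the peptide tunnel, was at 24.1 FPKM in female DRG replicate 3 and at 172 to 539 in the other DRG libraries, with 127 to 242 in TG. Rpl26 shares sequence with 5 pseudogenes whose summed mean FPKM was 227.

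On the linear scale the coefficient of variation over the 10 libraries was 0.475 in the median member, against 0.377 in the median gene detected. It was 0.517 over the 6 DRG and 0.323 over the 4 TG libraries. Rpl4 (0.181), Rpl3 (0.249), which lies near the peptidyl transferase centre, and Rps19 (0.308) varied least. Rpl35a (0.955), Rpl12 (0.744) and Rpl30 (0.644) varied most. Rpl35a was at 405 FPKM in male DRG replicate 3 and at 58.3 to 80.6 in the other 5 DRG libraries, so a single library carried its spread, while TG held 62.9, 106, 108 and 49.4.

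The stalk of the large subunit, which recruits the translation factors, is made of P0 and of P1 and P2 in pairs. The ratio of Rplp1 to Rplp2 FPKM was steady, at 1.35 ± 0.125 in DRG and 1.32 ± 0.0789 in TG (SD, n = 6 and n = 4), with a range of 1.20 to 1.52. Against Rplp0 it was less so, since Rplp1 over Rplp0 ran from 0.750 in female DRG replicate 3 to 1.64 in male DRG replicate 3, and Rplp2 over Rplp0 from 0.494 to 1.37 in the same libraries. Rplp2 ran in DRG from 251 through a median of 488 to 1412 FPKM and was 489 and 685 in male TG and 474 and 342 in female TG.

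Other members with a known role lay in between. Rps6, the target of the S6 kinases, ran in DRG from 178 through 213.8 to 476 FPKM and was 216 and 323 in male TG and 224 and 194 in female TG. Rps27a, made as a fusion with ubiquitin, averaged 235 ± 119 FPKM in DRG and 201 ± 81.2 in TG (SD, n = 6 and n = 4). Rpsa, the protein also known as a laminin receptor, averaged 176 ± 88.4 in DRG and 165 ± 30.6 in TG (SD, n = 6 and n = 4), and was lowest, at 66.1, in female DRG replicate 1. Rpl22, dispensable for many cells and important in T-cell development, averaged 75.6 ± 37.9 in DRG and 59.9 ± 28.9 in TG (SD, n = 6 and n = 4). The X-linked Rpl10 averaged 477 ± 223 and 415 ± 75.3, and the X-linked Rpl36a averaged 121 ± 70.0 and 92.4 ± 48.8, in DRG and TG (SD, n = 6 and n = 4). The ganglia overlapped for each of these genes.

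DRG and TG were compared for each member with limma on log2(FPKM + 1), in a model of ganglion plus sex, and p-values were adjusted over the 12637 genes detected. No member passed an adjusted p of 0.05, where 0.111% of all genes did, and none had an unadjusted p under 0.05 in this limma fit, where 6.35% of all genes did. No member had DRG and TG libraries that did not overlap, against 1.95% of all genes. The fitted difference was above 0 for 66 of the 77, against 44.3% of all genes tested, with a median of 0.14 against -0.049 over all genes. That count was 26 without male DRG replicate 3 and 35 without male TG replicate 1, with medians of -0.055 and -0.017. The median difference was 0.11 in the large and 0.19 in the small subunit. In the 8 numbered libraries, with the number as a block, 73 members were above 0 with a median of 0.19, and none passed in limma.

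Rpl39, an X-linked gene for a very small protein of the peptide tunnel, had the smallest p. Its FPKM in DRG ran from 84.0 through a median of 143 to 304, and it was 86.8 and 169 in male TG and 89.4 and 85.0 in female TG. The male TG replicate 2 value lay inside the DRG range and the other TG values at its lower end. The difference was 0.52 with a standard error of 0.34 (limma adjusted p = 0.807, two-sided exact permutation p = 0.229 over the 210 splits, the numbers ignored). Next above 0 were Rps4x (0.31, limma adjusted p = 0.837), Rpl15 (0.36, limma adjusted p = 0.84) and Rps20 (0.37, limma adjusted p = 0.848). Below 0 were Rps2 (-0.46, limma adjusted p = 0.843), Rps4l (-0.17, limma adjusted p = 0.935), Rpl10a (-0.095, limma adjusted p = 0.942) and Rpl3 (-0.095, limma adjusted p = 0.934). Rps4l turned above 0 when either male DRG replicate 1 or female DRG replicate 1 was left out and with the number as a block, Rpl10a without male DRG replicate 2, and Rpl3 without female DRG replicate 1 or male TG replicate 2.

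Between the sexes no member passed either, where 0.0237% of all genes did in the same limma fit, and no member had male and female libraries that did not overlap, against 0.791% of all genes. At an unadjusted p under 0.05 in limma, 18 members were higher in males, against 2.19% of all genes tested, and none was higher in females, against 1.91%. The fitted difference was above 0 for 74 of 77 members, against 45.1% of all genes, with a median of 0.51 against -0.045. Without male DRG replicate 3 the median was 0.27, with 69 members above 0, and without all 3 libraries that stand apart it was 0.21, with 73 above 0 and 1 unadjusted call. With libraries weighted by their fit to the model (array weights) the median was 0.14, with 59 above 0 and 6 unadjusted calls. With FPKM rescaled to the same total in each library, which moved the median of all genes between sexes by -0.14 to -0.18, the members had a median of 0.34 with 73 above 0, and with quantile normalization 0.31 with 68 above 0. The 18 treats all 10 libraries as independent. With the description number as a random block it was 11 (1.37% of all genes higher in males), with a median of 0.50. A further fit took 1 mean for each number and each unnumbered DRG library on its own, 3 male against 3 female. The numbered means span both ganglia and the unnumbered libraries DRG only, and the fit held a term for this. There the count was 10 (2.2% of all genes), with a median of 0.52. The 18 depended on which libraries were used. It became 3 without male DRG replicate 3, 3 without male TG replicate 2 and 2 without female DRG replicate 1. It became 1 without female DRG replicate 3 and 2 without female TG replicate 2. In the other direction it became 28 without male TG replicate 1 and 49 without male DRG replicate 2. The share of all genes called is not given for these fits, for array weights or without the 3 libraries that stand apart. Those counts therefore describe the members only.

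**Figure D4:**
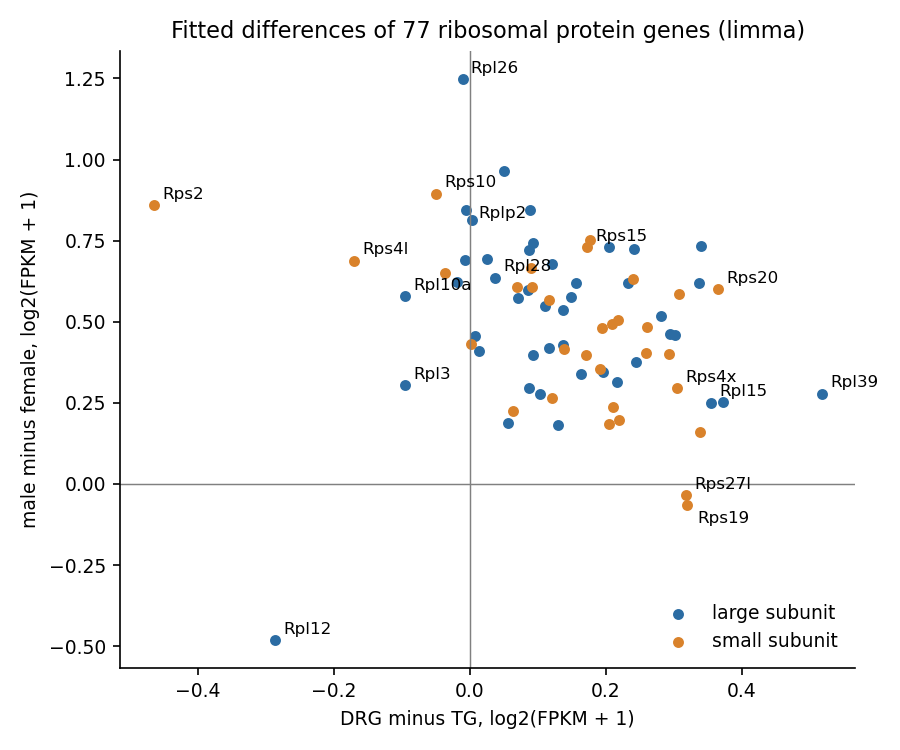
Fitted difference of each of the 77 members between DRG and TG (horizontal axis) and between male and female (vertical axis), both on the log2(FPKM + 1) scale from limma, with named genes labelled. Of the members, 66 lie to the right of 0 and 74 above 0, and none passed an adjusted p of 0.05.

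The smallest p between sexes was that of Rps15, a protein of the small subunit head. Its FPKM was 473, 362, 1083, 405 and 512 in the male libraries (DRG replicates 1 to 3, then TG replicates 1 and 2) and 273, 417, 276, 341 and 285 in the female libraries in the same order. Female DRG replicate 2 lay above male DRG replicate 2 and male TG replicate 1, so the sexes overlapped. The difference was 0.73 with a standard error of 0.29 (limma adjusted p = 0.816). Over means of each number and the unnumbered libraries, 3 male against 3 female, the two-sided exact permutation p was 0.1, the smallest that the 20 splits allow. This test did not separate numbered from unnumbered values. Rpl28, of the large subunit, was at 358, 331, 774, 371 and 408 FPKM in males and 227, 353, 227, 305 and 275 in females. Its difference was 0.64 with a standard error of 0.26 (limma adjusted p = 0.816, the same exact permutation p of 0.1). Rps10, mutated in some patients with Diamond-Blackfan anaemia, was at 171, 146, 485, 180 and 217.6 FPKM in males and 85.1, 191, 73.2, 154 and 113 in females, a difference of 0.90 (limma adjusted p = 0.816). Rplp2 had a difference of 0.85 (limma adjusted p = 0.816).

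The members fitted below 0 were Rpl12 (-0.48, limma adjusted p = 0.921), Rps19 (-0.064, limma adjusted p = 0.962) and Rps27l (-0.035, limma adjusted p = 0.987). Rpl12 rested on the male DRG replicate 2 library where it was listed at 0, and its difference was 0.95 without that library. Rps19 turned above 0 without male DRG replicate 2, female DRG replicate 1 or male TG replicate 1, and Rps27l without any of these or without female TG replicate 1. Rps19 was at 965, 438, 1272, 528 and 939 FPKM in males and 1057, 854, 819, 624 and 721 in females, in DRG replicates 1 to 3 and TG replicates 1 and 2. Within DRG alone 74 of the 77 members were fitted higher in males and within TG alone 77, with medians of 0.55 and 0.42. None passed an adjusted p of 0.05 in limma in either, and the share over all genes is not given for these fits. TG held 2 male and 2 female libraries. Male TG replicate 2 had all 77 members above their own mean, and male TG replicate 1 had 15. Male TG replicate 2 and male DRG replicate 3 carry the same description number, 2, so the ganglia may not be separate observations.

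The interaction of ganglion and sex, written as the male excess in DRG minus that in TG, passed for no member, where 0% of all genes passed, and no member had an unadjusted p under 0.05 in limma, where 1.17% of all genes did. It was above 0 for 55 of 77, but for 10 without male DRG replicate 3 and 19 without male TG replicate 1. The smallest p belonged to Rpl26 (1.47, standard error 1.10), Rps2 (0.80, standard error 0.80) and Rpl35a (0.78, standard error 0.91), each with a limma adjusted p of 0.9999. Rpl35a was at -0.0080 without male DRG replicate 3, and Rpl26 and Rps2 turned below 0 without the 3 libraries that stand apart.

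Ribosomal protein genes outside the name pattern were read beside the members. Fau, made as a fusion of a ubiquitin-like protein with a small subunit protein, averaged 777 ± 425 FPKM in DRG and 668 ± 129 in TG (SD, n = 6 and n = 4). Rps3a1, of the small subunit, averaged 282 ± 71.4 and 232 ± 49.4. Gnb2l1 (Rack1), the scaffold on the small subunit, averaged 190 ± 70.0 and 160 ± 28.4, and Rpl22l1, the paralog of Rpl22, 132 ± 63.8 and 102 ± 70.3. Fau had its highest value, 1638 FPKM, in male DRG replicate 3. The list was drawn up by symbol and also holds Rps19bp1, named as a binding protein of Rps19, and Rpl7l1. Its counts are therefore not of ribosomal proteins alone. None of its 7 detected genes passed between ganglia, sexes or for the interaction, and 5 of 7 were fitted higher in DRG and 5 of 7 higher in males.

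The elongation, termination and initiation factors of translation moved less between libraries than the members. In male DRG replicate 3 the median deviation from the genes' own means was 0.028 for 13 elongation and termination factors and 0.074 for 39 initiation factors, against 1.19 for the ribosomal protein genes. No gene of either list passed in limma in any of the 3 comparisons. The smallest p among initiation factors were those of Eif5 between sexes (-0.79, limma adjusted p = 0.816), which stimulates GTP hydrolysis on the scanning ribosome, and Eif4h between ganglia (-0.47, limma adjusted p = 0.754), a partner of the helicase eIF4A. Of 35 ribosome assembly factors, 9 were fitted higher in DRG, with a median of -0.13. In males 24 were fitted higher, with a median of 0.14, and none passed. Their median deviation was -0.060 in male DRG replicate 3 and -0.32 in female DRG replicate 1, where the members were at -0.28. Bop1, which acts in large subunit maturation, had the smallest p of the list between ganglia (-0.75, limma adjusted p = 0.772). Of 16 regulators of ribosomal protein synthesis, none passed, and their median deviation in male DRG replicate 3 was -0.59. Mtor itself had a difference of 0.60 between ganglia (limma adjusted p = 0.774) and Larp1 one of -0.58 between sexes (limma adjusted p = 0.816).

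Other gene groups moved with the ribosomal protein genes in some libraries and not in others. In male DRG replicate 3 the median deviation was 1.15 for 74 nuclear oxidative phosphorylation subunits, 0.96 for 14 subunits of the 20S proteasome and 0.89 for 76 mitochondrial ribosomal proteins. Genes with transcripts of 500 to under 1000 bases that are not members deviated by 0.91 there (910 genes), those of 2000 to under 4000 bases by -0.40 (4872 genes) and those of 4000 bases or more by -0.52 (3622 genes). The members' transcripts had a median length of 886 bases, against 2786 over the genes detected. In male TG replicate 2 the members deviated by 0.50, the oxidative phosphorylation subunits by 0.31, and other genes of 500 to under 1000 bases by 0.23. In female DRG replicate 3 the same 3 values were -0.40, -0.22 and -0.19, but the proteasome subunits were at 0.023 and other genes under 500 bases at 0.039. In female DRG replicate 1 the members were at -0.28, the oxidative phosphorylation subunits at 0.022 and other genes under 500 bases at 0.44. In female DRG replicate 2 the members were at 0.076 and the oxidative phosphorylation subunits at -0.11, with the proteasome subunits at -0.073 and other genes of 500 to under 1000 bases at -0.076. Of the other genes under 1000 bases, 457 had a mean FPKM at least that of the lowest member. In male DRG replicates 1 to 3 their median deviation was 0.057, -0.44 and 1.07, against 0.22, -0.39 and 1.19 in the members. In female DRG replicates 1 to 3 it was -0.0039, -0.082 and -0.22. In TG it was -0.17 and 0.28 in males and -0.17 and -0.28 in females, against -0.32, 0.50, -0.14 and -0.46 in the members. The part of transcript length in the movement of the members was not tested.

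**Figure D5:**
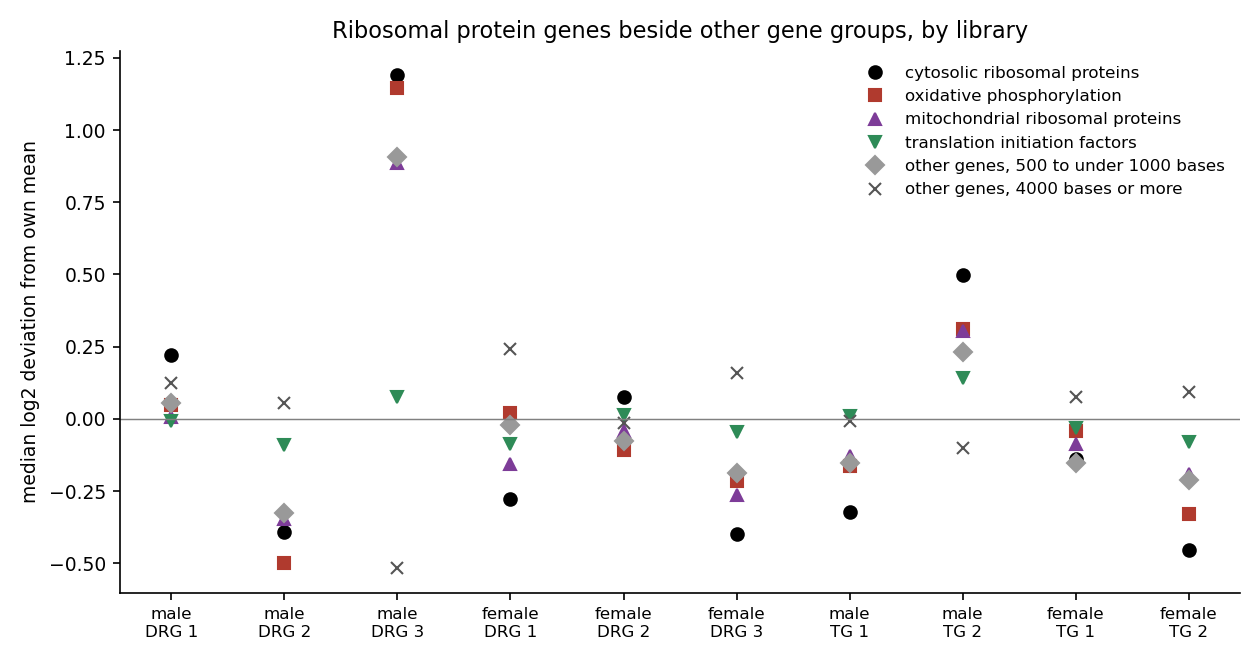
Median deviation of each gene group from its genes' own means over 10 libraries, on the log2(FPKM + 1) scale, by library. Cytosolic ribosomal protein genes, oxidative phosphorylation subunits and other genes of 500 to under 1000 bases are highest in male DRG replicate 3 (1.19, 1.15 and 0.91), where genes of 4000 bases or more are lowest (-0.52).

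Between the sexes 69 of 74 oxidative phosphorylation subunits, 14 of 14 proteasome subunits and 68 of 76 mitochondrial ribosomal proteins were fitted higher in males, with medians of 0.28, 0.25 and 0.25, against 0.51 for the members. None passed in limma. Between ganglia the counts fitted higher in DRG were 55 of 74, 13 of 14 and 42 of 76, with medians of 0.12, 0.18 and 0.024, and none passed. Among neuron markers none passed, and 13 of 17 were fitted higher in males (median 0.30) and 9 of 17 higher in DRG (median 0.0085). Of 14 satellite glia markers, 9 were fitted higher in DRG and 7 higher in males, with medians of 0.16 and 0.041. Of 10 myelin and Schwann cell markers, 1 was fitted higher in DRG (median -0.50), and none passed.

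Ribosomal protein genes have many processed pseudogenes, and only reads aligned to a single place were kept. Of all 75-base windows of a member's transcript, the length of a read, a median of 39.5% also occurred in the transcript of another annotated gene, from 0% to 98.5% for Rps27, and 75 of 77 members shared at least 1 window. Levels of such genes are therefore uncertain. Across the 77 members the share of such windows and the mean FPKM had a Spearman correlation of -0.050, a description over genes of the same libraries. Of the sharing genes themselves, those of Rpl41 summed to a mean of 733 FPKM and those of Rpl39 to 268, against 1461 and 140 for the members. As for Rpl39, the sharing genes summed above the member for Rps28 (1144 against 137), Rps23 (342 against 207) and Rpl37a (331 against 242). The same held for Rpl36a (267 against 109) and Rps7 (216 against 180). Rpl24, chosen after its values were seen, had a mean FPKM of 281 but an authors' mean normalised count of 1.71, where every other member was at 210 or more.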

How the data were processed

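The authors sorted GFP-positive cells, prepared libraries with the SMARTer Ultra Low Input kit, kept reads with a single alignment to mm10 (STAR), and derived the FPKM values that the deposited tables hold with Cufflinks. The deposited signal, the authors' mean of normalised counts from DESeq2, was read for description. The authors' columns of fold changes and p-values were not used, nor were 22 per-sample columns. Read counts were not used, so counting intervals are left out. Precision is given by the SD between replicates, and p-values measure the spread between these libraries. Libraries of the same description number may not be independent, and the labels do not say whether they come from the same mouse.

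Genes that reached 1 FPKM in 2 or more libraries of either ganglion were kept and put on log2(FPKM + 1), whose differences understate the change of low genes. Linear models were fitted with limma 3.58.1 (R 4.3.3, trended eBayes) on ganglion plus sex, or with their interaction, with Benjamini-Hochberg adjustment over all 12637 genes and a threshold of 0.05. The step was tested on simulated data. Single members were also compared by an exact permutation test of the group labels, between sexes over means of each description number. Sequence sharing used GENCODE M21 transcripts, whose build, GRCm38, is mm10. Python 3.11.15 was used for the rest.

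Deviations of same-numbered DRG and TG libraries correlated at 0.148, 0.383, 0.169 and 0.180, each above 0.1 and best with its own number. For title numbers within a sex they were -0.017 and -0.36 in males and 0.027 and 0.097 in females. The deviations were centred within ganglion and kept any difference between sexes, and each description number lies within a sex. They therefore cannot settle whether the description numbers pair the samples, so fits with and without them are given. The members and gene lists were chosen with earlier results of these data known. Members are named by level (4 highest and 2 lowest of each subunit), by smallest p (4 in each direction for ganglion and sex, 3 for the interaction), by coefficient of variation (3 at each end) and by role, and genes of the other lists by smallest p. Alternatives tried were a pseudocount of 0.1 or 0.5, no filter or a filter at 5, rescalings, other model terms, array weights, replicate blocks (fixed or, with duplicateCorrelation, random), other member sets and each library left out.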

Additional observations from a re-analysis of the deposited data

Results flagged for a closer look

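Groups examined were 76 (DRG or TG, for 36 named members, the share and the subunit ratio). Of these, 15 held a library whose gap to its nearest neighbour was large against the whole range. The limit used would flag about 1 in 20 unselected and independent groups by chance. That rate does not apply here, since some members were named for a large spread or a small p in these data. The members also moved together. The share and the subunit ratio were not among the 15. Male DRG replicate 3 stood above the other DRG libraries in 9 of the 15, at an FPKM of 919 for Rpl10, 774 for Rpl28, 230.98 for Rpl30, 405 for Rpl35a, 685 for Rpl4, 2347 for Rps14, 1904 for Rps29, 476 for Rps6 and 1659 for Rps9. Male TG replicate 2 stood above the other TG libraries for Rpl12 (118), Rpl3 (576) and Rpl39 (169). Female DRG replicate 3 stood below the other DRG libraries for Rpl26 (24.1) and Rps2 (13.5). Male DRG replicate 2 stood below them for Rpl12, which was listed at 0.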

How the results depend on the processing

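No member passed between ganglia (27 alternatives), between sexes (26) or for the interaction (22), and the lowest adjusted p that limma gave any member was 0.412, 0.408 and 0.920. The replicate block by description number gave 0 calls and a median difference between ganglia of 0.19, with 73 members above 0 with and without the block in the same 8 libraries, and the block by title number gave 0 calls and -0.010. Each number lies within a sex, so between sexes the number was taken as a random replicate block over all 10 libraries (correlation within a number 0.31) or averaged, both chosen after seeing the data. No block changed a call at the adjusted p. With median-ratio rescaling 72 members were above 0 between ganglia, with quantile normalization 55, and with centring on the members themselves 28. The difference of DRG and TG in the share was 0.29 percentage points and ran from -0.10 to 0.70 with each library left out. The difference in the subunit ratio was -0.065, ran from -0.093 to -0.022 with each library left out, and was 0.020 without the 3 libraries that stand apart.

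Between ganglia the sign turned for Rps2 without the 3 libraries that stand apart (0.0029), for Rpl3 with the 8 numbered libraries (0.0554 with and without the replicate block) and for Rps4l with the same (0.44) and with the random block (0.017). With each library left out Rpl3 ran from -0.22 to 0.0158, Rps4l from -0.36 to 0.15 and Rpl10a from -0.26 to 0.0831. Between sexes Rpl12 was 0.68, Rps19 0.0699 and Rps27l 0.17 in the TG libraries alone, and Rps19 was 0.0047 and Rps27l 0.0334 with median-ratio rescaling. With each library left out they ran from -1.14 to 0.95, from -0.23 to 0.19 and from -0.30 to 0.27. The interaction turned for Rpl26 (-0.0739) and Rps2 (-0.0831) without the 3 libraries that stand apart, and that of Rpl35a ran from -0.0080 to 1.34 with each library left out. The cause was not tested. With no filter the adjusted p was 1 for every member in the 3 comparisons. In that setting 12 members had an unadjusted p under 0.05 in limma between sexes, and the share over all genes is not given. FPKM without read counts limits the precision of members such as Rpl12, listed at 0 in a single library.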
